A study of Mus musculus with 21 samples.

Results

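The mitochondrial respiratory chain genes were followed by complex in whole mouse testes from gestation day (gd) 11 to postnatal day (pnd) 2. Members were all genes of the array platform whose symbol starts with Nduf, Uqcr, Cox4, Cox5, Cox6, Cox7, Cox8 or Atp5, together with Sdha, Sdhb, Sdhc, Sdhd, Cycs and Cyc1. This gave 92 genes on 184 probe sets that name 1 gene, of 18193 genes on 34945 such probe sets. A filter on dim probe sets left 90 of the 92 genes, on 170 probe sets, of 14338 genes tested. The 90 comprised 33 complex I subunits, 8 complex I assembly factors, all 4 subunits of complex II, 9 genes of complex III, the somatic cytochrome c gene Cycs, 18 genes of complex IV and 17 of complex V, the ATP synthase. Ndufa4 and its relative Ndufa4l2 were counted with complex IV, to which NDUFA4 is now assigned. The 2 genes that did not pass were Cox8b, a muscle form of a complex IV subunit, which reached at most 50.5 on any testis array, and Ndufb4, which reached at most 72.3. A further 10 probe sets naming a member together with another gene were left out. Among them were 2 that name Ndufb4, so its low value rests on 1 probe set and does not show that the gene was dim. Ndufa11 and Ndufs6 were named only on probe sets left out in this way, and so are not among the 92.

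Testes came from wild-type mice of the outbred CD-1 stock, with no treatment, and total RNA was hybridised to single-channel oligonucleotide arrays. Per the labels, 5 arrays were made at gd11, each from a pool of 2, and 3 at gd12, each from a pool of 5. A further 3 arrays without pooling were made at each of gd14, gd16, gd18 and pnd2, and the 6 times correspond to Theiler stages 18, 20, 22, 24, 26 and 27. A single reference array held RNA of 8 whole newborns of pnd 0.5, 4 male and 4 female, whose strain the labels do not give. The series' own design text speaks of 3 single animals at each time, which the gd11 and gd12 labels contradict, and the labels were followed.

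The respiratory chain sits in the inner mitochondrial membrane. Complex I (NADH dehydrogenase) and complex II (succinate dehydrogenase) pass electrons to ubiquinone, complex III passes them on to cytochrome c, and complex IV (cytochrome c oxidase) hands them to oxygen, while ATP synthase uses the proton gradient that complexes I, III and IV build. Most subunits are encoded in the nucleus and are the ones measured here, and several complex IV subunits exist in a ubiquitous form and in forms typical of heart and skeletal muscle, of testis or of cells short of oxygen. Textbook regulators of these nuclear genes are the factors NRF1, GABP, YY1, ERR and Sp1.

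Promoter stretches of 9 members on which the results turn are printed so that their upstream letters can be compared. Sequences are from RefSeq (assembly GRCm38.p6), each the 200 bases before the annotated start, 5′ to 3′ on the gene's strand. Capitals mark the letters of 6 searched motifs, on either strand: NRF1 (GCGCATGC), GABP/ETS (CCGGAAG), YY1 (AAGATGGC), ERR (AAGGTCA), Sp1 (GGGCGG) and CRE (TGACGTCA). The NRF1 letters are nearly their own reverse complement, so that matches on both strands can overlap, as they do in Atp5k. The first set holds genes whose level was highest at gd11: Atp5k, a small membrane subunit of ATP synthase (chr5:108434400-108434599 on the minus strand), Sdhb, the iron-sulfur subunit of complex II (chr4:140961071-140961270 on the plus strand), and Atp5h, subunit d of ATP synthase (chr11:115419920-115420119 on the minus strand).
Atp5k: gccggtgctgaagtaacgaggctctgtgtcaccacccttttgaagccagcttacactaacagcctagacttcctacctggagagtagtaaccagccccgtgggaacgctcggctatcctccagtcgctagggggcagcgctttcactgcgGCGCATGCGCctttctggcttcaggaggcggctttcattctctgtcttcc
Sdhb: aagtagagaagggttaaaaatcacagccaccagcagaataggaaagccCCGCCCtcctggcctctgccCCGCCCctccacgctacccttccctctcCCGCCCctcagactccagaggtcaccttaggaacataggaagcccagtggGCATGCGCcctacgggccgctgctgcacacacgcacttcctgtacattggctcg
Atp5h: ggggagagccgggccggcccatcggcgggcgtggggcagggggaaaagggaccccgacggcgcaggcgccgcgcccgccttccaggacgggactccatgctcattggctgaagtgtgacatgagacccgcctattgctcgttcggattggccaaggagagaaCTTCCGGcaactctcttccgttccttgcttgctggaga
Ndufv3, an accessory subunit of complex I, was highest at gd14 (chr17:31519915-31520114 on the plus strand).
Ndufv3: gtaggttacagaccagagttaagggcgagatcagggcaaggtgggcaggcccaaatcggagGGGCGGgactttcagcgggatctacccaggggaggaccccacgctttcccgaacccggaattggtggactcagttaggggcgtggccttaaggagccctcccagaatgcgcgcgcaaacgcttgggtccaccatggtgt
The remaining stretches compare ubiquitous and tissue-restricted forms of complex IV subunits. Cox6b1 (chr7:30626115-30626314 on the minus strand) and Cox7a2 (chr9:79759854-79760053 on the minus strand) are the widely expressed forms, Cox6b2 (chr7:4753095-4753294 on the minus strand) and Cox7b2 (chr5:71548206-71548405 on the minus strand) testis forms, and Cox7a1 (chr7:30183971-30184170 on the plus strand) the heart and muscle form.
Cox6b1: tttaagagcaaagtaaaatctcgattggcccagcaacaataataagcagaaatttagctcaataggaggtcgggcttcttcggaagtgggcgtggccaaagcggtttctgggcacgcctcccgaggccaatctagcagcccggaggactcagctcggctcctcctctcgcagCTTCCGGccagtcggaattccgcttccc
Cox6b2: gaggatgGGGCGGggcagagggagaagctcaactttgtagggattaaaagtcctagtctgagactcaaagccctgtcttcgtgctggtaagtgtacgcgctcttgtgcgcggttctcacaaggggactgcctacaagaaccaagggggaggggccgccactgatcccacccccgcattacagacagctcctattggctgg
Cox7a2: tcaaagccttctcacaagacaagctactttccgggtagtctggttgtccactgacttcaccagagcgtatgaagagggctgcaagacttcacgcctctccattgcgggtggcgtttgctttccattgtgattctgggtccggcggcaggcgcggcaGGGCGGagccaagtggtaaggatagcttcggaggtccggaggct
Cox7a1: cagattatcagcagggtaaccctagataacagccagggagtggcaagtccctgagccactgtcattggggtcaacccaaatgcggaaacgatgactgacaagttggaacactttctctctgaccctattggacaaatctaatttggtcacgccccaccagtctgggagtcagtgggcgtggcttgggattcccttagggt
Cox7b2: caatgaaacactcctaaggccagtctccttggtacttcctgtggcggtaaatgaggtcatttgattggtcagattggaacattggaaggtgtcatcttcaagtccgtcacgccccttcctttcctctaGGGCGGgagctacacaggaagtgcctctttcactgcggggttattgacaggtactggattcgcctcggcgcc
In these stretches the Atp5k sequence holds NRF1 letters, Sdhb holds both NRF1 and Sp1 letters, and Atp5h and Cox6b1 hold GABP/ETS letters. The sequences of Cox6b2, Cox7a2, Cox7b2 and Ndufv3 hold Sp1 letters only, while Cox7a1 holds none of the 6.

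Over windows of 300 bases (250 before and 50 after the start), 73 of the 90 members could be matched, with 78 starts, and were set beside 14729 starts of 11518 tested genes. NRF1 letters stood in 15.4% of member starts and 4.71% of all starts. For YY1 the shares were 12.8% and 3.81%, for ERR 8.97% and 3.44%, and for GABP/ETS 24.4% and 15.1%. The Sp1 letters went the other way, with 46.2% of member starts and 59.2% of all starts. CRE letters stood in 4 member starts (5.13%), those of Cycs, Ndufa10, Ndufb2 and Uqcrfs1, against 2.78% of all starts. The 12 members with NRF1 letters came from complexes I, II, III, IV and V, Cycs and the assembly factors Ndufaf4 and Ndufaf5. These matches describe the letters in a window and are neither binding sites nor a test.

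All values below are intensities per probe set as deposited, and changes are differences of log2(intensity + 22.4), a scale that understates the change of dim genes. Each gene is given by its brightest probe set, and levels of single genes are not compared with each other. Levels of the members as a set are given beside those of all genes only as a description. A stage mean below 71.6 is called near background. Calls are from limma, 1 fit over all 20 testis arrays, with Benjamini-Hochberg adjustment over all 14338 genes. A gene is called where its adjusted p is under 0.05, and results for single probe sets are from the same fit over all 26713 kept probe sets. Every array had a trimmed mean of 500, and correlations between arrays of a stage were 0.934 to 0.979 over all probe sets. Markers of the labelled tissue were present: at pnd2 the summed intensity of 8 Sertoli cell genes was 41575 to 47085 and that of 5 Leydig cell genes 18459 to 22679, against 7699 and 803 in the reference. Other tissue also moved with stage: the summed intensity of 6 erythroid genes was 81835 to 88859 at gd11 and 295 to 397 at pnd2, and that of 10 neural genes was 4333 to 78042 at gd11, highest on arrays 16 and 17, and 1210 to 1339 at pnd2. Their part in the results was not tested.

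The respiratory chain genes were bright and moved little. Their median intensity was 4838, against 544 over all genes tested, and 78 of 90 (86.7%) averaged over 1000, against 32.8% of all genes. The median difference between the highest and the lowest stage mean was 0.43 on the log2 scale for the members and 0.80 for all genes, and 86 of 90 members (95.6%) stayed within 2-fold, against 62.5%. Their standard errors were smaller too, with a median of 0.0967 against 0.198. In an F-test over the 6 stages, 62 of 90 members (68.9%) were called, against a background of 68.3% of all genes. Called members with at least a 2-fold range numbered 3, Cox7b2, Cox7a1 and Cox6a2, all of complex IV, which is 3.33% of the members against 32.5% of all genes. As whole testes were measured, fewer cells of a type and less RNA per cell cannot be told apart.

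The members' share of the summed intensity of all tested genes ran from 2.73% to 3.37% over the 20 testis arrays. Its stage medians were 3.2% at gd11, 3.17% at gd12, 3.26% at gd14, 3.06% at gd16, 2.9% at gd18 and 2.95% at pnd2. On the reference array the share was 4.89%, above every testis array. Among the 62 called members, 26 were highest at gd14 (41.9%, against 16.5% of all called genes) and 24 at gd11 (38.7%, against 25.9%), while 21 were lowest at gd18 (33.9%, against 10.7%).

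**Figure D1:**
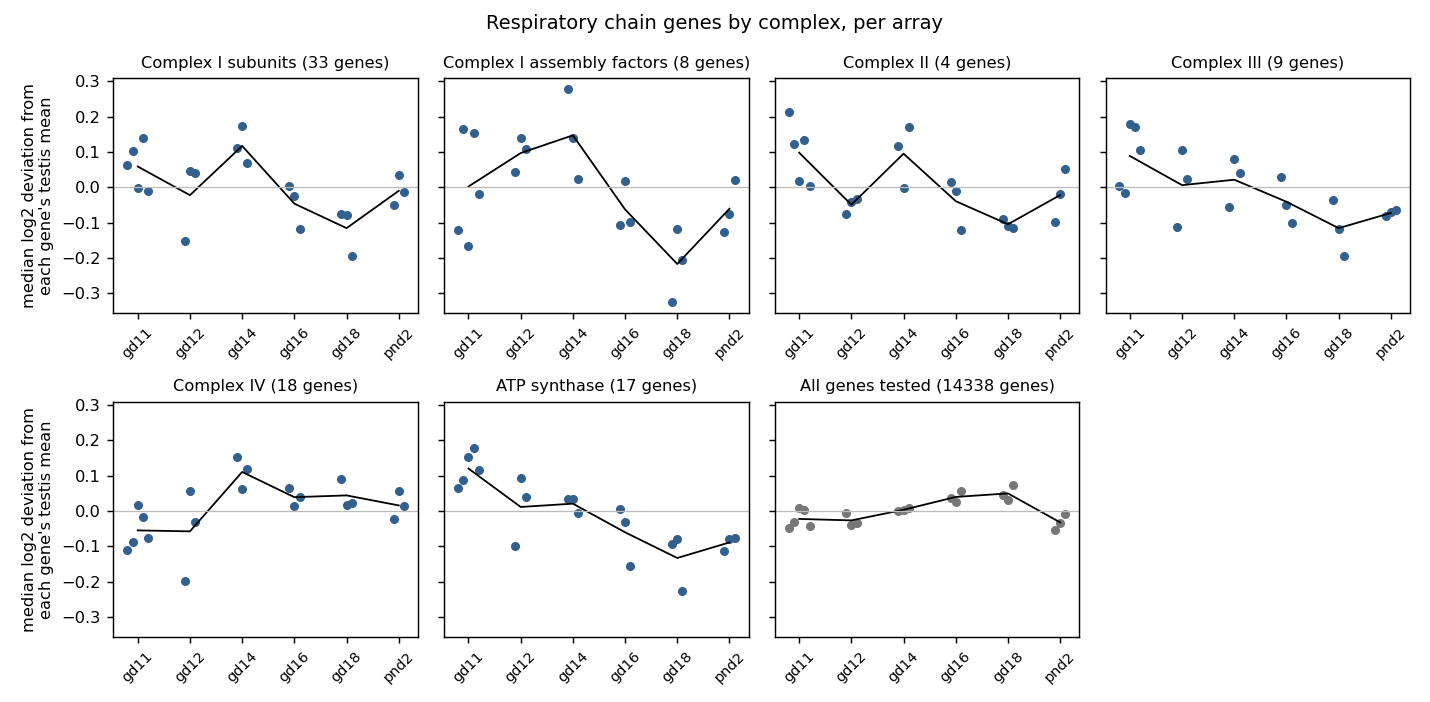
Median over the genes of each complex of the log2 deviation from the gene's mean over the testis arrays, per array (points) with the stage mean (line), for gd11 to pnd2. Complex I subunits peak at gd14 with a mean of 0.12, ATP synthase is highest at gd11 with 0.12, and both are lowest at gd18, at -0.12 and -0.13.

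The complexes did not share one course, as the plot of deviations by complex shows. The median deviation of the complex I subunits was 0.12 ± 0.05 (SD, n = 3) at gd14 and -0.12 ± 0.07 (SD, n = 3) at gd18, and the 3 arrays of each stage did not overlap. For ATP synthase it was 0.12 ± 0.05 (SD, n = 5) at gd11, -0.13 ± 0.08 (SD, n = 3) at gd18 and -0.09 ± 0.02 (SD, n = 3) at pnd2. The median deviation of complex IV was -0.05 ± 0.05 (SD, n = 5) at gd11 and 0.11 ± 0.05 (SD, n = 3) at gd14. At gd12 it was -0.06 ± 0.13 (SD, n = 3), with arrays from -0.20 to 0.06. Its genes did not share this course: of the 11 called in the F-test, 6 were lowest at gd11 and 4 highest there. Among all genes the stage means of the array medians lay between -0.03 and 0.05.

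In complex I, 23 of 33 subunits were called over the stages (69.7%, against 68.3% of all genes). Of these, 12 were highest at gd14 (52.2%, against 16.5% of all called genes). Ndufv3, an accessory subunit of the NADH-binding module, had the widest range of the complex (0.96). Its intensity was 4722, 4393 and 4948 at gd12, 6840, 5863 and 6490 at gd14, 4826, 5635 and 4499 at gd16, and 2943, 3364 and 3563 at pnd2. The gd14 arrays stood above every other testis array, and the pnd2 arrays below every other one. It rose by 0.45 on the log2 scale from gd12 to gd14 (SE 0.10, adjusted p = 0.00347) and fell by 0.53 from gd11 to pnd2 (SE 0.09, adjusted p = 5.54e-05).

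Ndufa7, a small accessory subunit, read 5891, 7494 and 7201 at gd12, 10412, 10324 and 9956 at gd14 and 7617, 7875 and 7997 at gd16. All 3 gd14 arrays were above every other testis array, of which the highest read 8128. The rise from gd12 was 0.58 (SE 0.09, adjusted p = 0.000179), and 4 of its 5 probe sets were called. Its fall to gd16 was -0.38 (SE 0.09, adjusted p = 0.0114), and without gd16 array 7 the adjusted p was 0.0527. Ndufs7, which carries the last iron-sulfur cluster before ubiquinone, read 5757, 5265 and 5340 at gd14, again above every other testis array, and 3074, 3469 and 3118 at pnd2. It rose by 0.40 from gd12 to gd14 (SE 0.11, adjusted p = 0.0135), with an adjusted p of 0.0608 without gd14 array 10 and 0.0823 without gd12 array 13. On its dimmer second probe set the change was 0.23 and not called (adjusted p = 0.119), nor was its -0.17 to gd16 (adjusted p = 0.346).

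Ndufv1, the subunit that binds NADH and FMN, read 3603, 4124 and 4583 at gd12 and 5523, 6043 and 5791 at gd14. These groups did not overlap, but the gd16 arrays (5442, 5716 and 4986) overlapped those of gd14. Its rise was 0.50 (SE 0.11, adjusted p = 0.00358), and all 3 of its probe sets were called, at 0.42 to 0.51. Ndufv2, the iron-sulfur partner of Ndufv1 in the same arm, went the other way, with 6534, 7245 and 7163 at gd12 and 5519, 5779 and 5710 at gd14. The groups did not overlap, and the change was -0.30 (SE 0.09, adjusted p = 0.0221). Its call was lost without gd14 array 10 or 12 and without gd12 array 14 or 15, with adjusted p of 0.0534 to 0.0763.

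Ndufb7, an accessory subunit of the membrane arm, was highest at gd11, with 6374, 6324, 6423, 6534 and 6207. At gd16 it read 3834, 4403 and 3799, and at pnd2 4825, 5294 and 4572, without overlap with gd11. The change from gd11 to pnd2 was -0.38 (SE 0.10, adjusted p = 0.0028). On its dimmer second probe set the change was -0.12 and not called (adjusted p = 0.401). Ndufs3, a core subunit, was the reverse at the end of the series, with 3768, 4084 and 3883 at gd18 and 4697, 4406 and 5039 at pnd2. The groups did not overlap, and it rose by 0.27 (SE 0.08, adjusted p = 0.0375). That call was lost without pnd2 array 1 or 3 or any of the 3 gd18 arrays. Ndufc1, a small accessory subunit, had the narrowest range of the complex, 0.16 (F-test adjusted p = 0.439).

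Ndufs8, another iron-sulfur subunit, moved furthest late, but only on 1 of its 6 probe sets by this size. On the brightest it read 13143, 12344 and 11168 at gd16, 6246, 7249 and 8722 at gd18 and 11330, 12726 and 11374 at pnd2. The gd18 arrays lay below both neighbours, and the changes were -0.73 (SE 0.12, adjusted p = 0.00233) and 0.68 (SE 0.12, adjusted p = 0.00298). The other 5 probe sets gave -0.32 to 0.15 and -0.50 to 0.07. The mean of its probe sets gave -0.25 (adjusted p = 0.114) and 0.01 (adjusted p = 0.962).

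Of the 8 complex I assembly factors, 6 were called over the stages (75%, against 68.3% of all genes). Ndufaf1, which acts in assembly of the membrane arm, read 1124, 1413 and 1370 at gd12, 1996, 1820 and 1789 at gd14, and 1012, 1207 and 1121 at gd18. The gd14 arrays were above every other testis array, and the rise from gd12 was 0.52 (SE 0.12, adjusted p = 0.00482). Ndufaf5, a methyltransferase-fold factor that modifies Ndufs7, rose by 0.54 (SE 0.18, adjusted p = 0.0389), from 376, 369 and 416 to 687, 649 and 423. Its groups did not overlap, with 1 gd14 array just above the gd12 arrays, and 9 alternatives ended the call, among them leaving out gd14 array 10 or 11 or any 1 gd12 array. Ndufaf4 fell over the same interval by 0.57 (SE 0.14, adjusted p = 0.00866), after a rise from gd11 to gd12 of 0.42 (SE 0.13, adjusted p = 0.0242). Its dimmer second probe set gave -0.20 from gd11 to gd12 (adjusted p = 0.366) and -0.59 from gd12 to gd14 (adjusted p = 0.0194). From gd11 to pnd2 the second fell by 1.03 (adjusted p = 1.19e-05), while the brightest gave -0.07 (adjusted p = 0.705). On the brightest, the fall to gd14 was not called without gd12 array 14 (adjusted p = 0.0515). Nor was the rise to gd12 called without gd12 array 14 or 15 or gd11 array 18 (adjusted p = 0.153, 0.122 and 0.0517). Ndufaf7, a methyltransferase acting early in assembly, had the smallest range of the group, 0.29 (F-test adjusted p = 0.254). Ndufaf2, which acts late in assembly, was called in the F-test (adjusted p = 0.00951) but in none of the 6 comparisons.

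All 4 genes of complex II were called in the F-test, which called 68.3% of all genes. Their highest stage was gd11 for Sdhb and Sdhd and gd14 for Sdha and Sdhc. Sdhb read 6468, 6718, 5784, 5929 and 6063 at gd11 and 4806, 4955 and 5131 at gd12. Every gd11 array was above every later testis array. The change from gd11 was -0.32 to gd12 (SE 0.08, adjusted p = 0.00736) and -0.34 to pnd2 (SE 0.08, adjusted p = 0.00155). Sdhc, a membrane anchor that binds ubiquinone, read 3589, 3598 and 3877 at gd12, 5149, 5056 and 4882 at gd14 and 3854, 4187 and 3497 at gd16. The gd14 arrays exceeded all other testis arrays, with a rise of 0.45 (SE 0.09, adjusted p = 0.00192) and a change to gd16 of -0.39 (SE 0.09, adjusted p = 0.011). Without gd16 array 9 or gd14 array 10 the second call was lost, with adjusted p of 0.0743 and 0.0504. Sdhd, the other anchor, was lowest at gd14 and gd16, with stage means of 2238 ± 55.1 and 2197 ± 168 (SD, n = 3), against 2696 ± 159 (SD, n = 5) at gd11. Sdha, the flavoprotein, had its highest mean at gd14, 6890 ± 300 (SD, n = 3), and its lowest at pnd2, 5564 ± 277 (SD, n = 3). On their brightest probe sets, neither Sdhd nor Sdha was called in any of the 6 comparisons. A dimmer probe set of Sdhd (mean 483) fell by 0.51 from gd11 to pnd2 (adjusted p = 0.0176). The dimmest of Sdha (mean 111) rose from gd11, by 0.71 to gd12 (adjusted p = 0.0355) and 0.66 to pnd2 (adjusted p = 0.0255). Its remaining one gave -0.25 to pnd2 (adjusted p = 0.0818).

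In complex III, 6 of 9 genes were called in the F-test (66.7%, against 68.3% of all genes). Of the 6, 4 were highest at gd11 (66.7%, against 25.9% of all called genes). Cyc1, the cytochrome c1 that hands electrons to cytochrome c, read 8198, 7451, 6651, 6994 and 6281 at gd11 and 5143, 5561 and 4337 at pnd2. The stages did not overlap, and the change was -0.50 (SE 0.11, adjusted p = 0.000626). Uqcrc1, a core protein of the matrix side, had another course, with 3761, 3773 and 3813 at gd12, 4752, 5299 and 5173 at gd14, 6197, 5753 and 6234 at gd16 and 4610, 4249 and 4629 at gd18. The gd16 arrays were above every other testis array. It rose by 0.42 from gd12 to gd14 (SE 0.09, adjusted p = 0.00358) and fell by 0.43 from gd16 to gd18 (SE 0.09, adjusted p = 0.0115), a call lost without gd18 array 5 (adjusted p = 0.0607).

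Uqcrc2, the other core protein, ranged from 4840 to 7813 at gd11, with a median of 6177, and read 4375, 4583 and 4195 at pnd2. All gd11 arrays were above the pnd2 arrays, and the change was -0.43 (SE 0.14, adjusted p = 0.0158), with an adjusted p of 0.0597 without pnd2 array 3. Uqcr11, a small subunit, was called in the F-test (adjusted p = 0.0124), from 3659 ± 246 (SD, n = 5) at gd11 to 2703 ± 282 (SD, n = 3) at gd18. Uqcr10, another small subunit, had the narrowest range of all members, 0.15 (F-test adjusted p = 0.846).

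Cycs, the mobile electron carrier, had stage means of 16271 ± 1053 (SD, n = 5) at gd11, 19163 ± 2336 (SD, n = 3) at gd14, 14161 ± 1922 (SD, n = 3) at gd18 and 17331 ± 3009 (SD, n = 3) at pnd2, and an F-test adjusted p of 0.0521. Its probe sets differed: from gd18 to pnd2 the brightest gave 0.29 (adjusted p = 0.203), and the other 2 rose by 0.50 (adjusted p = 0.0204) and 0.57 (adjusted p = 0.0365). Those 2 were called in the F-test (adjusted p = 0.000715 and 0.0141). From gd11 to pnd2 they gave 0.61 (adjusted p = 0.000123) and 0.17 (adjusted p = 0.353), and the brightest gave 0.08 (adjusted p = 0.608).

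The 4 members with over 2-fold between stages were all counted with complex IV: Cox7b2, Cox7a1 and Cox6a2, which are tissue-restricted forms, and Ndufa4l2, which was not called. Cox7b2, the testis form of subunit 7b, read 34.6, 36.5, 21.6, 26.4 and 14.7 at gd11 and 26.4, 53.1 and 73.6 at gd12, both near background as stage means. It then read 441, 347 and 305 at gd14, 245, 339 and 167 at gd16, 27.8, 88.9 and 169 at gd18 and 220, 320 and 299 at pnd2. The gd14 arrays stood clear of gd11, gd12 and gd18, gd16 and gd18 overlapped narrowly, and pnd2 was above gd18 on every array. The rise from gd12 to gd14 was 2.44 (SE 0.38, adjusted p = 0.0002), a size that depends on the pseudocount, since gd12 was near background.

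From gd16 to gd18 Cox7b2 changed by -1.37 (SE 0.38, adjusted p = 0.0431). This call was lost under 13 alternatives, among them the smaller pseudocount (adjusted p = 0.0802) and the fit without gd18 array 4, the lowest of the 3, where it was -0.85 (adjusted p = 0.257). Its rise to pnd2 of 1.55 (SE 0.38, adjusted p = 0.0185) was 1.03 without that array (adjusted p = 0.0821), and was not called without pnd2 array 2 or 3 (adjusted p = 0.0701 and 0.0623). The reference array read 2.83 for this gene. The summed intensity of 8 germ cell genes followed stages in part alike, at 1164 to 2135 at gd11, 6863 to 21263 at gd12, 41315 to 48022 at gd14, 22471 to 26609 at gd16, 12185 to 21923 at gd18, 9225 to 13459 at pnd2 and 765 in the reference. Their part in the result was not tested.

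Cox7a1, the heart and muscle form of subunit 7a, read 106, 101, 74.8, 105 and 69.3 at gd11 and 137, 484 and 252 at gd12. Each gd12 array was above each gd11 array, and it rose by 1.32 (SE 0.26, adjusted p = 0.00126). It stayed above gd11 up to pnd2 (205, 270 and 315), with a change from gd11 of 1.33 (SE 0.26, adjusted p = 0.000288). Cox6a2, the heart and muscle form of subunit 6a, read 26.8, 62.4, 84.8, 66.9 and 35.0 at gd11, near background as a mean, and 193, 110 and 153 at pnd2, without overlap. The change was 1.20 (SE 0.25, adjusted p = 0.000659). Of 13 muscle marker genes 11 passed the filter, and their summed intensity was 757 to 1306 at gd11, 1017 to 1974 at gd12, 2166 to 2469 at gd14, 2471 to 3270 at gd16, 1571 to 3047 at gd18 and 854 to 1060 at pnd2. The sums and Cox7a1 were both highest at gd16, and the pnd2 sums lay within the gd11 range. Their part in the result was not tested.

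Cox6b2, the testis form of subunit 6b, read 533, 756, 1119, 974 and 946 at gd11 and 1724, 1642 and 1347 at pnd2. The groups did not overlap, and the change was 0.88 (SE 0.19, adjusted p = 0.000969). Cox6b1, its ubiquitous counterpart, fell over the same interval by 0.43 (SE 0.06, adjusted p = 1.68e-05), from 16427, 17753, 17218, 19151 and 16890 to 12364, 13400 and 13063. For Cox7a2, the ubiquitous form beside Cox7a1, the change was -0.32 (SE 0.08, adjusted p = 0.00262). In 2 of the pairs, then, the restricted form was higher at pnd2 and the ubiquitous form lower. That call for Cox7a2 was lost under quantile normalization.

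**Figure D2:**
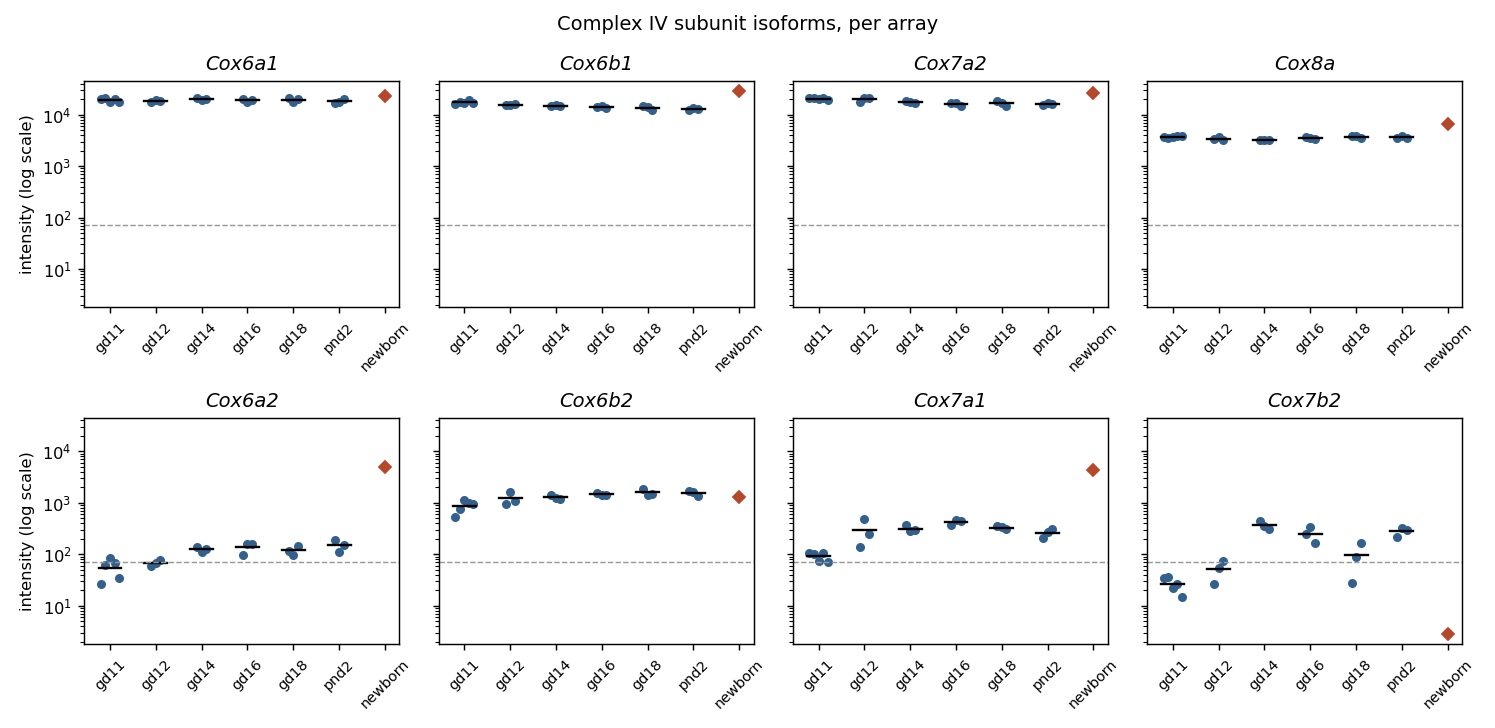
Intensity (log scale) of 8 complex IV subunit genes on every testis array from gd11 to pnd2 (points, with the stage mean as a bar) and on the whole newborn reference (diamond), with the near-background limit of 71.6 dashed. The 4 ubiquitous forms in the upper panels stay within 2-fold, whereas Cox7b2 goes from 14.7 to 36.5 at gd11 to 305 to 441 at gd14, and Cox6a2 and Cox7a1 stand far below the newborn value on every array.

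The plot of complex IV isoforms sets these genes side by side. Cox6a1, Cox8a and Cox4i1, ubiquitous forms of their subunits, were not called in the F-test (adjusted p = 0.528, 0.14 and 0.094). Cox4i2, the form induced at low oxygen and typical of lung, was near background at 5 of 6 stages. Ndufa4l2, another gene induced at low oxygen, had a stage range of 1.62 and scattered at gd11 from 28.5 to 332, with an F-test adjusted p of 0.0714. Ndufa4 was called in the F-test (adjusted p = 0.0185) and in no comparison, with stage means of 5289 ± 665 (SD, n = 5) at gd11 and 3885 ± 369 (SD, n = 3) at gd14. Cox8c, a testis form of subunit 8, had stage means of 189 ± 61.3 (SD, n = 5) at gd11 and 320 ± 36.4 (SD, n = 3) at gd14, an F-test adjusted p of 0.0153 and no call between stages.

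Cox7a2l, which helps join complexes III and IV into supercomplexes, rose by 0.34 from gd12 to gd14 (SE 0.11, adjusted p = 0.0408), a call lost under 8 alternatives, among them leaving out any 1 gd14 array or gd12 array 13 or 15. At gd18 it read 5457, 5494 and 7375 and at pnd2 4530, 4811 and 3963, without overlap. It fell by 0.45 (SE 0.11, adjusted p = 0.0206), or by 0.31 without gd18 array 6 (adjusted p = 0.116). Without pnd2 array 3 the adjusted p was 0.0942.

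In ATP synthase, 12 of 17 genes were called in the F-test (70.6%, against 68.3% of all genes). Of the 12, 7 were highest at gd11 (58.3%, against 25.9% of all called genes) and 5 at gd14 (41.7%, against 16.5%). At gd18, 7 were lowest (58.3%, against 10.7%). Atp5a1, the alpha subunit of the catalytic head, read 14093, 14041, 14869, 14814 and 13810 at gd11 and 12081, 12048 and 12041 at gd12. Each gd11 array was above each later testis array. The change to gd12 was -0.25 (SE 0.06, adjusted p = 0.00446) and to pnd2 -0.41 (SE 0.06, adjusted p = 9.22e-06).

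Atp5h fell further, from 14097, 15830, 16302, 17733 and 15548 at gd11 to 11066, 11524 and 9125 at pnd2. Here too the gd11 arrays were above all others, and it fell by 0.59 (SE 0.10, adjusted p = 5.29e-05). Atp5k read 9375, 8828, 8608, 8859 and 8913 at gd11 and 7045, 7703 and 7009 at gd12, the former above every later array. It fell by 0.30 (SE 0.07, adjusted p = 0.00552). For Atp5pb, the stalk subunit b, the change from gd11 to pnd2 was -0.47 (SE 0.08, adjusted p = 0.000121).

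The 3 genes for the c subunit of the rotor, whose mature protein is the same, had different courses. Atp5g1 had its highest mean at gd14, with 8685, 6881 and 6839 against 4155, 6965 and 5831 at gd12, which overlapped. It was called in the F-test (adjusted p = 0.000839) and in no adjacent comparison. Atp5g2 changed by -0.32 from gd14 to gd16 (SE 0.09, adjusted p = 0.0256) and by -0.46 from gd11 to pnd2 (SE 0.08, adjusted p = 6.72e-05). Its dim second probe set gave 0.30 and 0.00, and with the mean of both neither call held, at -0.01 (adjusted p = 0.976) and -0.23 (adjusted p = 0.141). The first call was also lost on leaving out any 1 of the gd14 or gd16 arrays. For Atp5g3 the last change was -0.20 (SE 0.06, adjusted p = 0.0139), which turned to 0.03 under quantile normalization and was not called without pnd2 array 1 or 2 (adjusted p = 0.0543 and 0.0739). Atp5md, a small membrane subunit, read 6624, 4722 and 5935 at gd14 and 4325, 3710 and 2393 at gd16, without overlap, and changed by -0.75 (SE 0.21, adjusted p = 0.0305). Without gd16 array 9, gd14 array 10 or gd14 array 12 the adjusted p was 0.188, 0.138 and 0.085. Atp5e, the epsilon subunit, had the narrowest range, 0.17.

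Interval by interval, the first step from gd11 to gd12 called 12 members, 2 higher and 10 lower, against a background of 21.4% of all genes (11.2% higher and 10.2% lower). The 2 that rose were Cox7a1 and Ndufaf4, and 4 of those that fell were ATP synthase genes, Atp5a1, Atp5d, Atp5h and Atp5k. For 7 of the 12, and for 76% of all called genes, the groups did not overlap. The median change was -0.07 for members and -0.01 for all genes. Under quantile normalization 6 members were called, 4 higher and 2 lower, and the members' median was 0.01. Without gd12 array 13, gd12 array 15 or gd11 array 19 the count was 7, 6 and 7. Calls that held under every alternative run were those of Sdhb, Cox7a1 and Atp5k.

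From gd12 to gd14, 18 members were called, 15 higher and 3 lower, against 18.7% of all genes (11.4% higher and 7.34% lower). Complex I gave 9 of the 15, and Ndufv2, Ndufaf4 and Atp5pb were the 3 lower ones. The groups did not overlap for 17 of the 18, nor for 97.4% of all called genes. The median change was 0.12 for members and 0.03 for all genes. With each array centred on its median the split was 10 higher and 6 lower. The count was 10 without gd14 array 10, 11 without gd14 array 11 and 11 without gd12 array 13. Calls under every alternative run remained for 7: Ndufv1, Ndufaf1, Ndufv3, Uqcrc1, Cox7b2, Sdhc and Ndufa7.

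From gd14 to gd16 all 10 called members fell, against 10.4% of all genes called (5.39% higher and 4.99% lower). They were Ndufa7, Ndufb3, Ndufs1, Ndufs7, Ndufv3, Sdhc, Cox5a, Atp5b, Atp5g2 and Atp5md. The groups did not overlap in any of the 10, nor in 99.7% of all called genes. The members' median was -0.10 and that of all genes 0.05. The count rested on single arrays: it was 3 without gd16 array 7, 1 without gd16 array 9, and 1, 6 and 4 without gd14 array 10, 11 and 12. No call held under every alternative run. As a description, Ndufa7, Ndufs7, Ndufv3 and Sdhc were called both in the rise to gd14 and in this fall, 2 comparisons that share the gd14 arrays.

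From gd16 to gd18, 3 members were called, all lower, against 4.88% of all genes (1.7% higher and 3.18% lower): Ndufs8, Uqcrc1 and Cox7b2. From gd18 to pnd2, 4 were called, against 7.8% of all genes (2.54% higher and 5.26% lower): Ndufs8, Ndufs3 and Cox7b2 were higher and Cox7a2l lower. Groups were apart for 2 of the 3 and for all 4, against 99.1% and 99% of all called genes. The first count was 1 without gd18 array 5. The second was 1 without pnd2 array 3, 2 without gd18 array 4, 2 without gd18 array 6 and 7 without gd11 array 16. Under quantile normalization its split was 2 and 2, and with arrays centred on the median 9 and 1.

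Between the ends of the series, pnd2 against gd11, 39 members were called, 10 higher and 29 lower, against 48.6% of all genes (24.2% higher and 24.4% lower). All 9 called ATP synthase genes were lower, as were 12 of 17 in complex I and 4 of 5 in complex III. In complex IV, 4 were higher, Cox7b2, Cox7a1, Cox6a2 and Cox6b2, and 3 lower, Cox5a, Cox6b1 and Cox7a2. The groups did not overlap for 34 of the 39, nor for 85.5% of all called genes. The median change was -0.11 for members and -0.03 for all genes. The split depended on the scaling, with 16 higher and 20 lower under quantile normalization and 4 higher and 38 lower with arrays centred on the median. Calls under every alternative run remained for 18 members, among them all 4 of the complex IV genes that rose.

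Other mitochondrial genes gave these counts in the same fit. Of 76 mitochondrial ribosomal protein genes, which serve translation of the mitochondrially encoded subunits, 18 rose and 5 fell from gd12 to gd14 (30.3% called, against 18.7% of all genes), with Mrpl23 at 1.14 and Mrpl45 at 0.92. From gd14 to gd16, 8 fell and 0 rose (10.5%, against 10.4%). Of 17 pyruvate dehydrogenase and citric acid cycle genes, 2 rose and 7 fell from gd11 to pnd2 (52.9%, against 48.6% of all genes), with Cs, citrate synthase, at -0.62. Among 25 genes of protein import and channels, 1 rose, Vdac3 by 0.63, and 12 fell, Tomm70a by 0.93, over the same span (52% called). Of 33 other assembly factors, 1 rose and 10 fell (33.3% called).

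Of 21 regulators of mitochondrial gene expression, 4 rose and 9 fell from gd11 to pnd2 (61.9% called, against 48.6% of all genes). From gd12 to gd14, 3 rose and 1 fell (19%, against 18.7% of all genes), with a median change of -0.05. From gd14 to gd16, 0 rose and 2 fell (9.52%, against 10.4%). Pprc1, a coactivator related to PGC-1, was highest at gd14, with stage means of 1614 ± 89.9 (SD, n = 5) at gd11, 2525 ± 327 at gd12, 3368 ± 66.7 at gd14, 2568 ± 344 at gd16, 1877 ± 147 at gd18 and 1919 ± 109 at pnd2 (SD, n = 3 each). It rose by 0.42 from gd12 to gd14 (SE 0.10, adjusted p = 0.00854) and fell by 0.40 to gd16 (SE 0.10, adjusted p = 0.0224). Slc25a31, the ATP and ADP carrier typical of germ cells, rose by 2.63 from gd12 to gd14 (SE 0.38, adjusted p = 0.000114). Cyct, the testis cytochrome c, rose by 2.40 from gd11 to gd12 (SE 0.50, adjusted p = 0.00219).

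Against the whole newborn reference the members were low in testis. This array had no replicate, so values are given with no test. The pnd2 mean was below the reference for 79 of 90 members (87.8%), against 45.2% of all genes, with a median difference of -0.76 against 0.11. At least 2-fold below were 24 (26.7%, against 17.3%), or 14 under quantile normalization, and at least 2-fold above were 3 (3.33%, against 17.5%), Cox7b2, Ndufs5 and Cox7c. All 20 testis arrays were below the reference for 67 members (74.4%), against 19.4% of all genes. All 20 were above it for 6 members (6.67%, against 27.4%): Ndufaf1, Ndufaf2, Ndufaf7, Ndufs5, Cox7c and Cox7b2, of which 3 are complex I assembly factors.

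**Figure D3:**
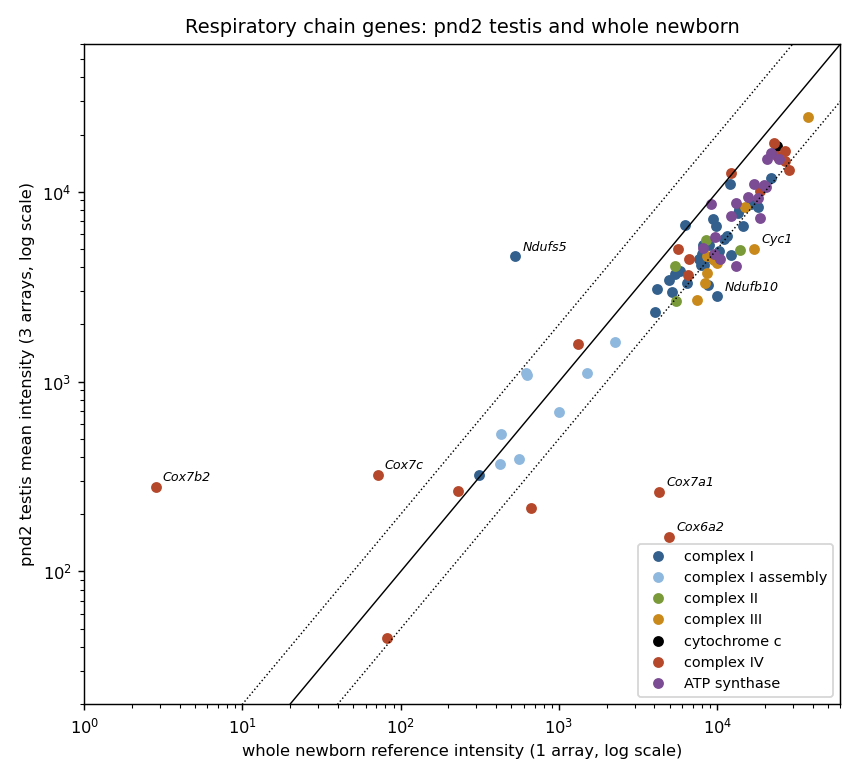
Mean intensity at pnd2 (3 testis arrays, vertical) against the whole newborn reference (1 array, horizontal), both on log scales, 1 point per gene coloured by complex, with lines of equality and of 2-fold differences. Most points lie between equality and 2-fold below it, and Cox6a2 and Cox7a1 lie far below, with Ndufs5, Cox7c and Cox7b2 far above.

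By complex, the median difference at pnd2 was -1.20 for complex III, -0.82 for complex II, -0.80 for complex I, -0.73 for ATP synthase, -0.68 for complex IV and -0.31 for the complex I assembly factors. Furthest below were Cox6a2 at -4.87, with 4985 on the reference, and Cox7a1 at -3.93, with 4268. Next were Ndufb10, an accessory subunit of complex I, at -1.82, and Cyc1 at -1.77, with 17103 on the reference. Cox8b, which did not pass the filter in testis, read 8224 there. The summed intensity of the 11 muscle genes on the reference was 185101. Its part in these differences was not tested.

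The citric acid cycle list had a median difference of -1.04 at pnd2, and the mitochondrial ribosomal proteins one of -0.11. Furthest above the reference were Cox7b2 at 3.56, Ndufs5, an accessory subunit of complex I, at 3.06 with 4590 against 529, Cox7c at 1.77 and Ndufaf1 at 0.81. For Cox7b2 and Cox7c the reference, at 2.83 and 71.5, was near background, so the size of these differences, and their order, depends on the pseudocount. Ndufs5 was read on 1 probe set, as another that also names Ndufs5-ps was left out. Cox7c was read on dim probe sets only, with testis means of 375 and 163. Whether these probe sets report the main transcript was not tested, so a low reference reading does not show absence from newborns. The side of the reference can depend on the probe set. Of 49 members with more than 1 probe set past the filter, 13 had probe sets on both sides of the reference at pnd2. For Ndufv1 the pnd2 means were 4401, 3745 and 3708, and the reference read 7679, 2233 and 3890 on the same probe sets. Over all 170 member probe sets, 141 (82.9%) were below the reference.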

How the data were processed

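Whole testes of CD-1 mice were measured on 20 arrays of 6 stages, with 1 array of whole newborns. The authors deposited 1 linear intensity for each probe set, computed in GCOS (array software of Affymetrix) according to the submitters' processing notes. The sources used here give neither the version and algorithm of GCOS nor the build behind the probe sets. The trimmed mean (2% at each end) was 500 on all 21 arrays, so values were used as deposited.

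Values were taken as log2(intensity + 22.4), the 20th percentile of testis values. The filter kept a probe set that exceeded the 40th percentile of the array on 3 or more of 20 arrays, and a gene was given by its brightest probe set that names 1 gene. Platform symbols were checked through Entrez identifiers, of which 34741 of 34945 matched, and 0 symbols changed. limma 3.58.1 in R 4.3.3 fitted 6 stage means (lmFit, eBayes with a trend, 14 residual degrees of freedom), tested on simulated data first. p-values were adjusted by Benjamini-Hochberg and called below 0.05. They set a change against 1 spread per gene, estimated over all 20 testis arrays. That spread mixes the one between pools at gd11 and gd12 with the one between arrays without pooling at later stages. The labels name no batch.

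The members and gene lists were chosen with earlier results of these data known. Named were, per complex, up to 4 members with the widest stage range past the F-test and the narrowest one; the Sdh genes, Cycs and Cyc1; isoform pairs; the up to 3 largest rises and falls of each comparison; and the 4 furthest members on each side of the reference. Other members named were chosen after their values were seen. Alternatives covered pseudocount, filter, scaling, probe sets, array weights, the arrays in the fit and each replicate. Promoters were RefSeq sequences of GRCm38.p6, matched by symbol or gene identifier.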

Additional observations from a re-analysis of the deposited data

Results flagged for a closer look

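In 1 of 57 sets of gd11 arrays examined, the outermost array stood apart from the rest. For Ndufs8, gd11 array 16 read 8406, the lowest, and the other 4 read 10674, 10974, 10976 and 11011, so that its gap to the nearest was 0.885 of the whole range. Chance alone marks about 1 in 20 such groups. Array 16 was also the lowest of its stage for Cox6b2, at 533, and for Cox8c, at 89.9. For other members it was the highest of its stage, among them Cyc1, at 8198, and Ndufa1, at 9770.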

How the results depend on the processing

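Of 86 member calls over the 6 comparisons, 28 held under every alternative run: 3 of 12 for gd12 against gd11, 7 of 18 for gd14 against gd12, 0 of 10, 0 of 3 and 0 of 4 for the next 3 adjacent pairs, and 18 of 39 for pnd2 against gd11. Quantile normalization gave 6 calls for gd12 against gd11 and 14 members at least 2-fold under the reference (24 as reported), and reversed Atp5g3 (0.03) and Uqcrb (0.02) for pnd2 against gd11. Fits on only the stages compared gave 4, 11 and 17 calls for the first 3 adjacent pairs. Array weights gave 19, 8 and 12 for the last 3. For pnd2 against gd18, centring on the median gave 10 and the mean of probe sets 7. Without gd11 arrays 16 and 17, gd18 against gd16 gave 5 and pnd2 against gd18 gave 9. The causes were not tested. Leaving out each replicate gave 54 to 63 F-test calls, 6 to 14 for gd12 against gd11, 10 to 20 for gd14 against gd12, 1 to 14 for gd16 against gd14, 1 to 4 for gd18 against gd16, 1 to 7 for pnd2 against gd18 and 32 to 43 for pnd2 against gd11, with 23 to 27 members 2-fold under the reference and 3 to 3 over it. Weights ranged from 0.231 to 1.94. No paired analysis was possible because replicate numbers run on over the series and no 2 groups share one. With 3 arrays in most stages, changes of the members' size are near what the fit can call, and a call missed is no sign of equal levels.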

Other observations

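Among germ cell forms of mitochondrial and energy genes, 4 of 7 passed the filter, and their summed intensity was 166 to 426 at gd11, 480 to 3039 at gd12, 4536 to 5744 at gd14, 4191 to 4782 at gd16, 1750 to 3235 at gd18 and 2678 to 4387 at pnd2, against 140 on the reference. Ldhc, the germ cell lactate dehydrogenase, had stage means of 24.6 ± 15.6 at gd12, near background, and 214 ± 31.9 at gd14 (SD, n = 3 each) and rose by 2.37 (limma, SE 0.35, adjusted p = 0.000113), a size that depends on the pseudocount. Of 11 genes induced at low oxygen, 3 rose and 0 fell from gd16 to gd18, where limma called 1.7% of all genes higher and 3.18% lower. From gd18 to pnd2, 0 rose and 6 fell, against 2.54% and 5.26% of all genes, with a median change of -0.85, against -0.06 over all genes. In the steroid-making arm of the mitochondrion, 4 of 5 genes rose from gd12 to gd14, among them Cyp11a1 by 5.25 (SE 0.52, adjusted p = 1.63e-06) and Star by 3.39 (SE 0.60, adjusted p = 0.000716). Esrrg, an ERR family receptor, fell by 2.80 from gd11 to pnd2 (SE 0.38, adjusted p = 5.59e-06), with 24.6 ± 14.8 (SD, n = 3), near background, at pnd2.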
